A study of Mus with 16 samples.

Results

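The 8 genes described here encode the MHC machinery of antigen presentation, and they were followed among the 54219 genes counted in the forebrain of *Kdm5c*-mutant mice. They are the class II genes *H2-Ab1* (ENSMUSG00000073421), *H2-Aa* (ENSMUSG00000036594), *H2-Eb1* (ENSMUSG00000060586), *Cd74* (ENSMUSG00000024610), and *Ciita* (ENSMUSG00000022504), and the class I genes *H2-K1* (ENSMUSG00000061232), *H2-D1* (ENSMUSG00000073411), and *B2m* (ENSMUSG00000060802). The set was chosen by its identifiers around *H2-Ab1*, and *H2-Ab1* itself stands in the study's list as a gene changed in *Kdm5c*-HET females and not in *Kdm5c*-KO males. Its differences between groups and the female contrast of all members are therefore described without a test. Tests were kept for the other members in males and between the sexes in WT, and for correlations of animals around their group means. The other 7 genes joined as partners of *H2-Ab1* in the same pathway. *H2-Ab1*, *H2-K1*, and *H2-D1* also stand in the study's own list of changed genes from these animals, so the calls given here are not independent of it.

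MHC class II molecules show peptides from engulfed material to CD4+ T cells. Each is a pair of an alpha and a beta chain, which the invariant chain Cd74 guides through the cell, and the class II transactivator Ciita switches on their genes. Dendritic cells, B cells, and macrophages make most class II protein, and healthy brain tissue holds little of it. MHC class I molecules show peptides from inside the cell to CD8+ T cells and need B2m as their light chain. Many cell types make them, and in the brain they have also been tied to synapse development.

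The forebrains (cortex and hippocampus) came from 16 mice at postnatal day 6, with 4 animals in each of 4 groups, namely WT and *Kdm5c*-KO males and WT and *Kdm5c*-HET females. *Kdm5c* lies on the X chromosome and encodes an H3K4 demethylase. KO males carried only the deleted allele, HET females carried it beside an intact copy, and WT animals carried no deletion. All animals were of a mixed C57BL/6J and 129S1/SvImJ background and came from several litters, and the litter and the strain alleles of each animal were not analysed here. The allele was made by Cre-mediated deletion and is carried in the germline, so the loss is not limited to a cell type.

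Between 21513783 and 30063352 reads were counted per animal. The neuronal gene *Rbfox3* stood at 216 to 275 CPM (counts scaled to a common library size) in every animal. The expression of *Kdm5c* was not analysed here, because no source paired it with an identifier. The choroid plexus transcript *Ttr* was above 50 CPM, before TMM scaling, in 6 animals (WT males 2D and 5D, WT females 1D and 3D, HET females 8E and 9E) and at most 5.49 in the other 10, and in no KO male was it high. Bulk RNA cannot tell fewer cells of a type from less RNA per cell, which holds for each gene here.

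On the GRCm38.p6 (mm10) assembly, RefSeq places 5 of the 8 genes in the MHC region of chromosome 17. *H2-K1* spans 33996012 to 34000619, *H2-Ab1* 34263227 to 34269418, *H2-Aa* 34282744 to 34287823, *H2-Eb1* 34305867 to 34316674, and *H2-D1* 35263094 to 35267497. The others lie apart, *Ciita* on chromosome 16 (10480014 to 10531064), *Cd74* on chromosome 18 (60803849 to 60812652), and *B2m* on chromosome 2 (122147687 to 122153082). RefSeq places other genes over parts of *Ciita* (*LOC115488669* and *Dexi*), *Cd74* (*Mir5107*), and *B2m* (*Patl2*), and reads there may be shared. *H2-K1* and *H2-D1* are close copies of each other and of further class I genes, and only uniquely mapped reads were counted, so the split between such copies is uncertain.

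The class II transcripts were scarce in every group. Summed over *H2-Ab1*, *H2-Aa*, *H2-Eb1*, and *Cd74*, an animal gave 44 to 111 reads. The summed level was 2.84 ± 0.290 CPM (SD, n = 4) in WT males, 2.41 ± 0.471 in KO males, 2.42 ± 0.449 in WT females, and 3.74 ± 0.906 in HET females. The sums of HET females, from 2.498 to 4.46 CPM, overlapped those of every other group. Of the 8 genes, 7 passed edgeR's filter on low counts, and *H2-Aa* did not.

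*H2-Ab1* encodes the beta chain of the I-A class II molecule. It had 9, 9, 13, and 6 counts in WT females 1D, 3D, 4E, and 5E. In HET females 6E, 8E, 9D, and 9E it had 31, 16, 34, and 25 counts. All 4 HET females were thus above all 4 WT females, with 8E the closest to them. The share of all genes tested that separate groups so fully was not counted, for this or any gene below. The level was 0.354 ± 0.127 CPM (SD, n = 4) in WT females and 1.07 ± 0.312 in HET females. The fitted log2 fold change (Log2FC) was 1.59 (standard error 0.316, 95% interval 0.931 to 2.25), and this is the rise on which the gene was selected.

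The males entered that selection as well, as the sex without the change, so their values are also a description. *H2-Ab1* had 9, 11, 13, and 14 counts in WT males 1E, 2D, 5D, and 7D, and 12, 15, 16, and 17 counts in KO males 2E, 3E, 4D, and 6D. The groups overlapped, with 2 of 4 KO males above every WT male in CPM. Its level was 0.475 ± 0.103 CPM (SD, n = 4) in WT and 0.587 ± 0.0940 in KO males. The Log2FC was 0.30 (standard error 0.324, 95% interval -0.371 to 0.981).

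From low to high, the levels of *H2-Ab1* thus ran from WT females through WT males and KO males to HET females. WT females and WT males overlapped, with a Log2FC of females against males of -0.42 (standard error 0.344, 95% interval -1.14 to 0.295), and WT and KO males overlapped as well. HET female 8E, at 0.634 CPM, lay inside the range of KO males, from 0.485 to 0.677 CPM, and the other 3 HET females lay above it. The female response exceeded the male response by 1.29 on the Log2FC scale (standard error 0.455, 95% interval 0.336 to 2.24), a value that contains the rise used for the selection. Within animals whose label carries the letter D, the log2 ratio of mean CPM was 2.13 in females and 0.43 in males, and within letter E it was 1.28 and 0.29. The meaning of the letter is not given in the sources used here, and some of these means rest on a single animal.

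**Figure D1:**
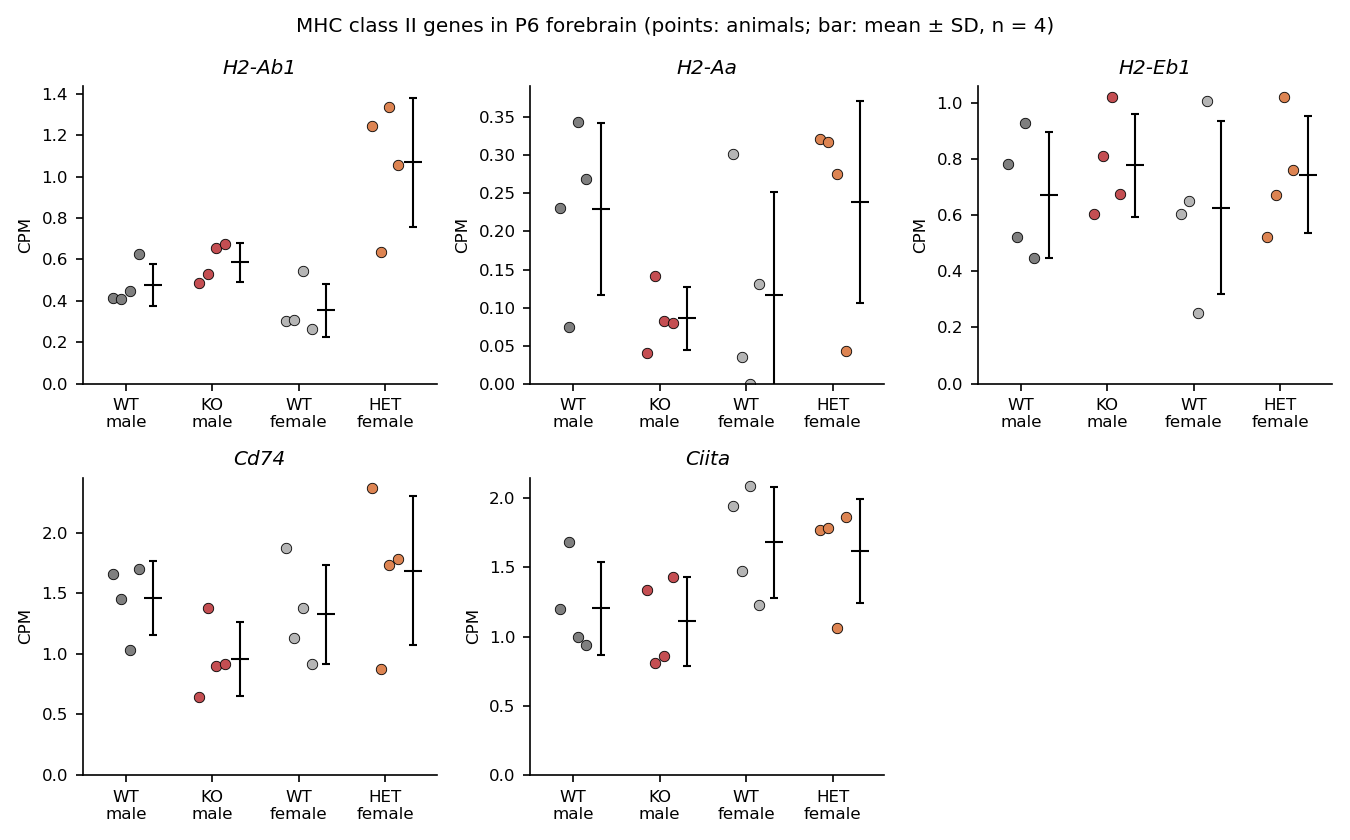
Level of each class II gene in CPM (vertical axes, each from 0) for the 4 animals of each group, with points for animals and a bar for the mean ± SD, which for *H2-Aa* in WT females is cut at 0. *H2-Ab1* is the gene whose 4 HET females lie above all WT females, while *Cd74* and *H2-Eb1* overlap between groups.

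*H2-Aa* encodes the alpha chain that pairs with H2-Ab1, and it was close to the limit of counting. It had 9, 1, 0, and 3 counts in WT females 1D, 3D, 4E, and 5E and 8, 8, 7, and 1 in HET females 6E, 8E, 9D, and 9E. In WT males 1E, 2D, 5D, and 7D it had 5, 2, 10, and 6 counts, and in KO males 2E, 3E, 4D, and 6D it had 1, 4, 2, and 2. The groups of each sex overlapped. The mean level was 0.230 CPM in WT males, 0.0858 in KO males, 0.117 in WT females, and 0.239 in HET females. The exact two-sided permutation test of the 4 KO against the 4 WT males gave p = 0.114, or 0.229 after Benjamini-Hochberg adjustment over the 8 members. *H2-Ab1* is counted among these 8 tests here and below, although nothing is read from its own value. The smallest unadjusted value this design can give is 0.0286. The count of 0 in WT female 4E allows up to 3 reads, or 0.125 CPM, by counting error.

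The share of *H2-Ab1* among the summed reads of both chains was 67.1% in WT males (exact binomial 95% interval 54.9 to 77.9, 70 reads) and 87.0% in KO males (76.7 to 93.9, 69 reads). In WT females it was 74.0% (59.7 to 85.4, 50 reads) and in HET females 81.5% (73.8 to 87.8, 130 reads). The intervals overlap in each sex and cover counting error only, and the shares were not tested. These are shares of reads and not of molecules, since the lengths of the transcripts were not taken into account.

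*H2-Eb1*, the beta chain of the I-E class II molecule, showed no separation between genotypes. It had 17, 14, 27, and 10 counts in WT males 1E, 2D, 5D, and 7D and 15, 23, 25, and 17 in KO males 2E, 3E, 4D, and 6D. In WT females 1D, 3D, 4E, and 5E it had 18, 19, 6, and 23 counts, and in HET females 6E, 8E, 9D, and 9E it had 13, 17, 26, and 18. Its Log2FC was 0.20 in males (standard error 0.356, 95% interval -0.539 to 0.947, q = 0.840) and 0.25 in females (standard error 0.359, 95% interval -0.499 to 1.0025). Here q is the p-value of edgeR's quasi-likelihood test after Benjamini-Hochberg adjustment across all 17866 genes that passed the filter, and genes with q under 0.1 are said to be called. The log2 ratio of mean CPM was 0.42 within label letter D and -0.15 within letter E in males, and 0.71 and 0.05 in females. The beta chains thus differed in the size of the female value, 1.59 against 0.25, with *H2-Ab1* chosen for its own.

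*Cd74*, the invariant chain, had a negative Log2FC in males, which did not pass the test, and a positive value in females. It had 36, 39, 30, and 38 counts in WT males 1E, 2D, 5D, and 7D and 16, 39, 22, and 23 in KO males 2E, 3E, 4D, and 6D. In CPM, 3 of 4 KO males lay below every WT male and KO male 3E lay among them. The level was 1.46 ± 0.306 CPM (SD, n = 4) in WT and 0.960 ± 0.304 in KO males, with a Log2FC of -0.59 (standard error 0.310, 95% interval -1.23 to 0.0608, q = 0.362). The exact permutation test gave p = 0.0571 (0.229 after Benjamini-Hochberg adjustment over the 8 members). In WT females 1D, 3D, 4E, and 5E the counts were 56, 33, 33, and 21, and in HET females 6E, 8E, 9D, and 9E they were 59, 22, 44, and 42. These overlapped, with HET female 6E above and 8E below every WT female in CPM. The female Log2FC was 0.34 (standard error 0.295, 95% interval -0.280 to 0.953), and the female response exceeded the male response by 0.92 (standard error 0.428, 95% interval 0.0291 to 1.82), given here as a description. The female value ran from 0.13 without HET female 6E to 0.56 without WT female 1D, and it was 0.83 without the 6 animals high in *Ttr*. The log2 ratio of mean CPM within letters D and E was -0.62 and -0.72 in males and 0.20 and 0.54 in females.

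*Ciita*, the transactivator of the class II genes, overlapped between genotypes in each sex. WT males 1E, 2D, 5D, and 7D had 26, 45, 29, and 21 counts, and KO males 2E, 3E, 4D, and 6D had 33, 23, 21, and 36. WT females 1D, 3D, 4E, and 5E had 58, 43, 50, and 28 counts, and HET females 6E, 8E, 9D, and 9E had 44, 45, 27, and 44. The Log2FC was -0.13 in males (standard error 0.275, 95% interval -0.703 to 0.448, q = 0.876) and -0.06 in females (standard error 0.257, 95% interval -0.596 to 0.479). The level of this regulator in HET females, 1.62 ± 0.374 CPM (SD, n = 4), lay close to that of WT females, 1.68 ± 0.401. Within letter D the log2 ratio of mean CPM in females was -0.69, with HET female 9D as the single mutant animal, and within letter E it was 0.13.

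Whether *H2-Ab1* varied together with its partners was examined over the 16 animals on log2 CPM with each group's mean taken off, which removes the differences between groups used for the selection. *Cd74* had the highest correlation of the 7 partners, with Pearson's r = 0.54 (permutation p = 0.0887, 0.621 after Benjamini-Hochberg adjustment over 7 tests) and Spearman's rho = 0.48 (permutation p = 0.0892, adjusted 0.624). Without HET females 9D and 6E, the animals farthest from the median of *H2-Ab1*, its r was 0.43, and without HET female 8E alone it was 0.24. The pairing chain *H2-Aa* had r = -0.23 (permutation p = 0.518, adjusted 0.906) and *H2-Eb1* r = -0.41 (permutation p = 0.195, adjusted 0.682), which was -0.05 without WT female 4E. With the means of group and label letter taken off, r was 0.73 for *Cd74* and -0.65 for *H2-Eb1*. For *Ciita*, *H2-K1*, *H2-D1*, and *B2m*, r lay between -0.09 and 0.24. None of the 7 correlations passed the adjustment by Pearson's r or Spearman's rho.

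By the same measure, the 10 genes most like *H2-Ab1* among the other 17865 tested had r from 0.804 to 0.872 over the 16 animals. *Spag7*, ranked 8 with r = 0.814, is the single gene of the 10 that the sources pair with a symbol. *Cd74* ranked 433 and *H2-Eb1* 16317. The ranks are a description with no test, and the low counts of *H2-Ab1* enter each of them.

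The class I genes were far more deeply counted, and there KO males differed from WT males. The heavy chains *H2-K1* and *H2-D1* were called higher in KO males, whereas the light chain *B2m* was not called. Of the 6 genes tested beside *H2-Ab1*, 2 were called higher and 0 lower in KO males by edgeR, beside 3.55% of all genes tested called higher, 1.69% called lower, and 5.24% called in either direction. Neither direction added a member under an unadjusted p of 0.05, a value that 2939 of the 17866 genes tested were under. DESeq2 also gave 2 and 0, beside 745 higher and 387 lower over the same genes. Both called genes are class I, and *H2-Eb1*, *Cd74*, and *Ciita* were not called. The median Log2FC was 0.46 over the 3 class I genes, which is the value of *H2-D1* itself. Over the 4 class II genes, *H2-Ab1* included, it was 0.04, beside -0.0072 over all genes tested. The other class II values were 0.20 for *H2-Eb1*, -0.13 for *Ciita*, and -0.59 for *Cd74*, so without *H2-Ab1* the middle value was negative.

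*H2-D1*, a classical class I heavy chain, separated the male genotypes completely. It stood at 35.4, 32.8, 36.5, and 32.5 CPM in WT males 1E, 2D, 5D, and 7D. In KO males 2E, 3E, 4D, and 6D it stood at 47.6, 41.3, 51.6, and 49.1 CPM. Every KO male was above every WT male. The means were 34.3 ± 1.94 CPM (SD, n = 4) and 47.4 ± 4.40, from 726 to 1059 counts in a WT and 1170 to 1260 counts in a KO male. The Log2FC was 0.46 (standard error 0.0634, 95% interval 0.332 to 0.597, q = 0.000109), a 1.38-fold rise. The exact permutation test gave p = 0.0286, the smallest possible here, and 0.229 after Benjamini-Hochberg adjustment over the 8 members.

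The rise of *H2-D1* in males held in all 16 fits that left out 1 animal, with Log2FC from 0.42 to 0.53 and q from 1.01e-05 to 0.00106. The fits without a female keep every male compared, and both ends of each range came from fits without a male. Without the 6 animals high in *Ttr* the Log2FC was 0.48 (q = 0.0181). Within label letter D the log2 ratio of mean CPM was 0.57 and within letter E it was 0.33.

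*H2-K1*, the other classical heavy chain, rose by a like amount with a wider spread. It stood at 8.54, 9.01, 7.17, and 7.04 CPM in WT males 1E, 2D, 5D, and 7D and at 10.7, 11.6, 14.7, and 7.61 CPM in KO males 2E, 3E, 4D, and 6D. KO males 2E, 3E, and 4D were above every WT male, and 6D lay within their range. The means were 7.94 ± 0.985 CPM (SD, n = 4) and 11.2 ± 2.94, with a Log2FC of 0.49 (standard error 0.147, 95% interval 0.185 to 0.798, q = 0.0757). The exact permutation test gave p = 0.0857 (0.229 after Benjamini-Hochberg adjustment over the 8 members).

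The call of *H2-K1* depended on the animals in the fit. It was lost without WT male 5D (Log2FC 0.45, q = 0.213) or 7D (0.44, q = 0.193). The same held without KO male 2E (0.51, q = 0.129), 3E (0.47, q = 0.172), or 4D (0.33, q = 0.206). The Log2FC fell to 0.33 without KO male 4D and was 0.64 without KO male 6D. With the male animals alone it was 0.50 (q = 0.174), and without the 6 animals high in *Ttr* 0.52 (q = 0.476). Within letters D and E the log2 ratio of mean CPM was 0.53 and 0.39.

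*B2m*, the light chain shared by all class I molecules, showed no such separation. It stood at 28.9, 26.4, 27.7, and 22.5 CPM in WT males 1E, 2D, 5D, and 7D and at 20.3, 20.1, 33.3, and 23.8 CPM in KO males 2E, 3E, 4D, and 6D. The groups overlapped, with KO males 2E and 3E below and 4D above every WT male. The means were 26.4 ± 2.78 CPM (SD, n = 4) and 24.4 ± 6.16, with a Log2FC of -0.12 (standard error 0.135, 95% interval -0.398 to 0.167, q = 0.740). The interval excludes a rise as large as the fitted 0.46 of *H2-D1*. The value turned on the animals used, since it was -0.30 without KO male 4D and the log2 ratio of mean CPM was 0.16 within letter D and -0.52 within letter E.

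**Figure D2:**
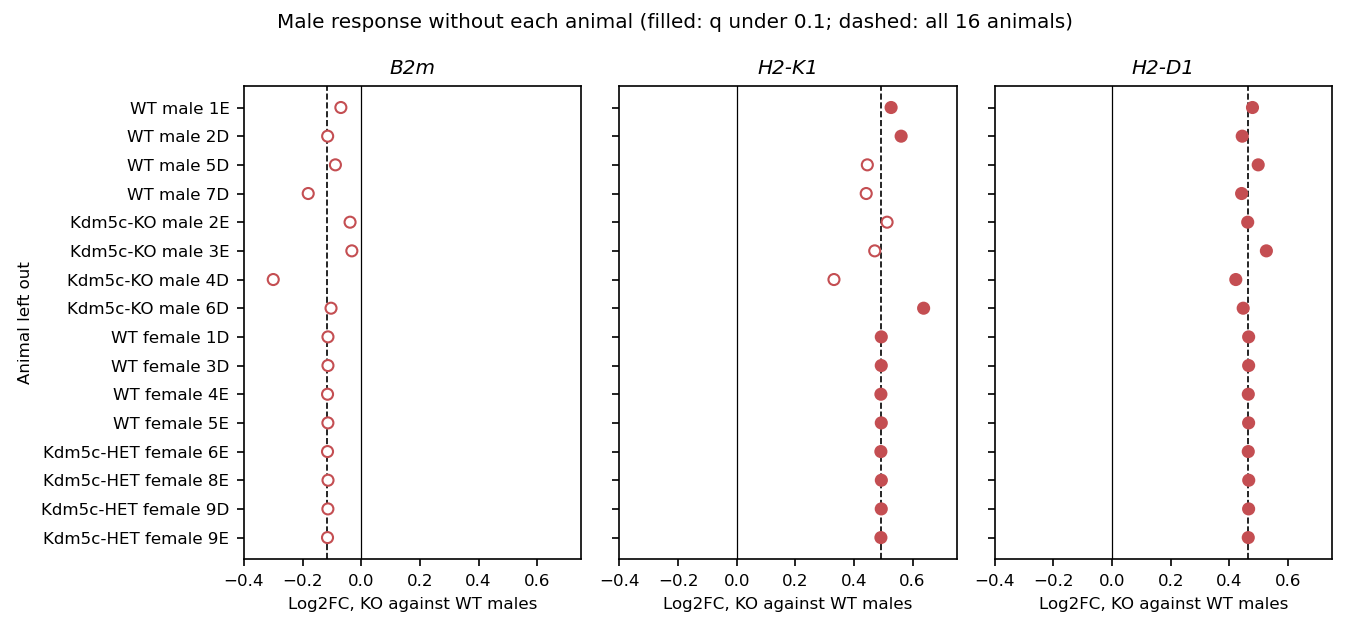
Log2FC of KO against WT males (horizontal axes) for *B2m*, *H2-K1*, and *H2-D1* in fits that left out the animal named on the vertical axis, with filled points for q under 0.1, open points for q above it, and a dashed line for all 16 animals. *H2-D1* is filled in all 16 fits, *H2-K1* in 11, and *B2m* in none. The fits that left out a female keep every male compared, and all 5 open points of *H2-K1* are fits without a male.

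**Figure D3:**
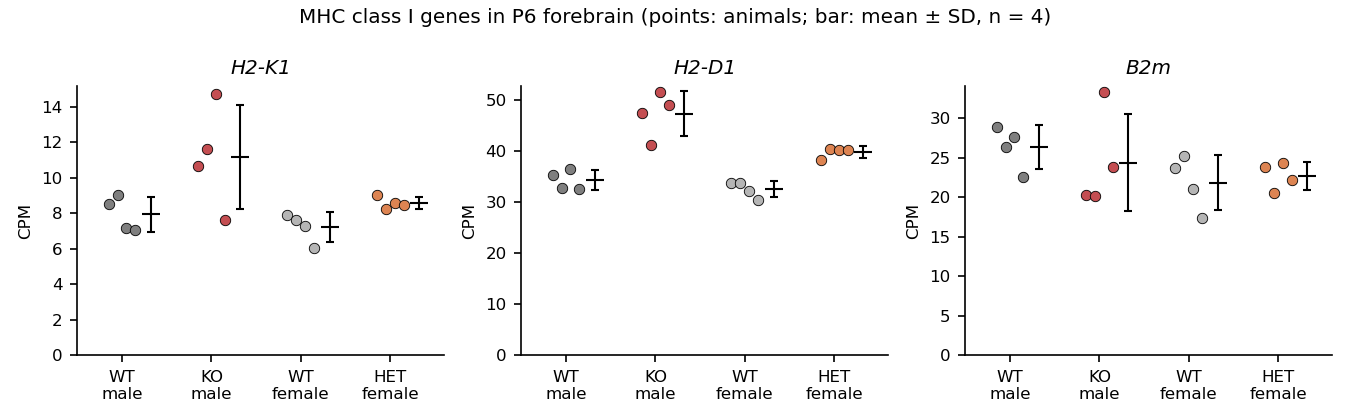
Level of the class I genes in CPM (vertical axes, each from 0) for the 4 animals of each group, with points for animals and a bar for the mean ± SD. For *H2-D1* the KO males, from 41.3 to 51.6 CPM, lie above all WT males, while *B2m* overlaps between genotypes in both sexes.

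In females, the class I genes are described like *H2-Ab1*, without a test. *H2-D1* stood at 33.7, 33.8, 32.2, and 30.5 CPM in WT females 1D, 3D, 4E, and 5E and at 38.3, 40.6, 40.4, and 40.3 CPM in HET females 6E, 8E, 9D, and 9E. All 4 HET females were above all WT females. The means were 32.6 ± 1.56 CPM (SD, n = 4) and 39.9 ± 1.09, with a Log2FC of 0.29 (standard error 0.0637, 95% interval 0.159 to 0.425). *H2-K1* stood at 7.92, 7.64, 7.30, and 6.05 CPM in WT females 1D, 3D, 4E, and 5E and at 9.04, 8.21, 8.58, and 8.43 CPM in HET females 6E, 8E, 9D, and 9E. Here as well, all 4 HET females were above all WT females, and the share of all genes that do so was not counted. The 95% interval of the *H2-K1* Log2FC of 0.24 (standard error 0.149) still ran from -0.0703 to 0.554. *B2m* stood at 17.3 to 25.3 CPM in WT and 20.5 to 24.4 CPM in HET females, and each HET female lay within the range of the WT females (Log2FC 0.05, standard error 0.137). Without the 6 animals high in *Ttr* the value of *B2m* was 0.32, and that of *H2-D1* was 0.32 as well. For description only, *H2-Ab1* and *H2-D1* were the 2 of 7 genes under the threshold in this contrast, beside 0.509% of all genes tested in either direction. Neither was under it without WT female 1D, 3D, or 5E or without HET female 9D, and nothing is read from that count. The Log2FC stayed at 1.46 to 1.85 for *H2-Ab1* and 0.26 to 0.31 for *H2-D1* over all 16 fits without 1 animal.

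The responses of the sexes are set side by side in the plot of Log2FC by gene. For *H2-D1* the female response was smaller than the male response by 0.17 (standard error 0.0898), and for *H2-K1* by 0.25 (standard error 0.209). The 95% intervals of these differences ran from -0.360 to 0.0151 and from -0.687 to 0.187. For *H2-Eb1*, *Ciita*, and *B2m* the female value was higher by 0.05, 0.07, and 0.17. The differences hold the female contrast on which *H2-Ab1* was selected, so they and their intervals are a description and are not used to say that the sexes differ.

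**Figure D4:**
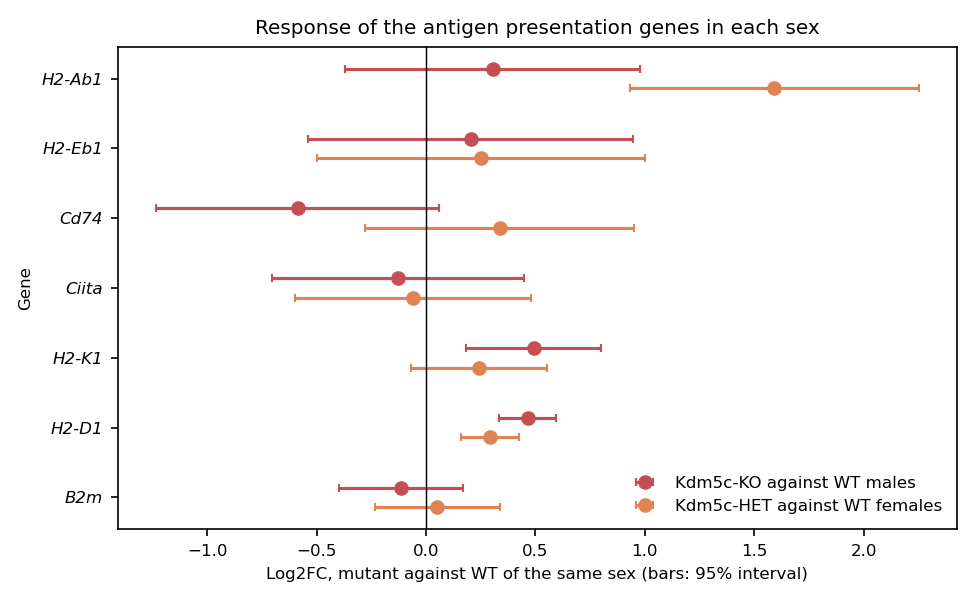
Log2FC of mutant against WT animals (horizontal axis) for the 7 genes that passed the filter, with points for the fitted value and bars for the 95% interval in males and in females. The male intervals of *H2-K1* and *H2-D1* lie above 0, and the highest female value is the 1.59 on which *H2-Ab1* was selected.

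Because heavy and light chains form a single molecule, the raw counts were also compared within each animal, a comparison chosen after the values were seen and one that needs no scaling of libraries. The ratio of *H2-D1* to *B2m* reads was 1.22, 1.25, 1.32, and 1.45 in WT males 1E, 2D, 5D, and 7D and 2.34, 2.05, 1.55, and 2.07 in KO males 2E, 3E, 4D, and 6D. All KO males were above all WT males. The means were 1.31 ± 0.101 (SD, n = 4) and 2.001 ± 0.329, given without a test because the ratio was chosen for these values. In WT females it was 1.51 ± 0.184 and in HET females 1.77 ± 0.169, from 1.34 to 1.76 and from 1.61 to 1.98, which overlap.

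The ratio of *H2-K1* to *B2m* was 0.302 ± 0.0346 (SD, n = 4) in WT males and 0.466 ± 0.112 in KO males, where KO male 6D, at 0.320, lay among the WT males. In females it was 0.333 ± 0.0215 in WT and 0.378 ± 0.0198 in HET animals, and all 4 HET females were above all WT females. The ratio of the heavy chains to each other, *H2-K1* to *H2-D1*, was 0.232 ± 0.0337 in WT males and 0.237 ± 0.0614 in KO males. It ran from 0.155 to 0.286 in KO males, a range that holds all 4 WT males, and its means in WT and HET females were 0.221 and 0.215. Lengths were not taken into account, so these ratios compare groups and not genes.

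**Figure D5:**
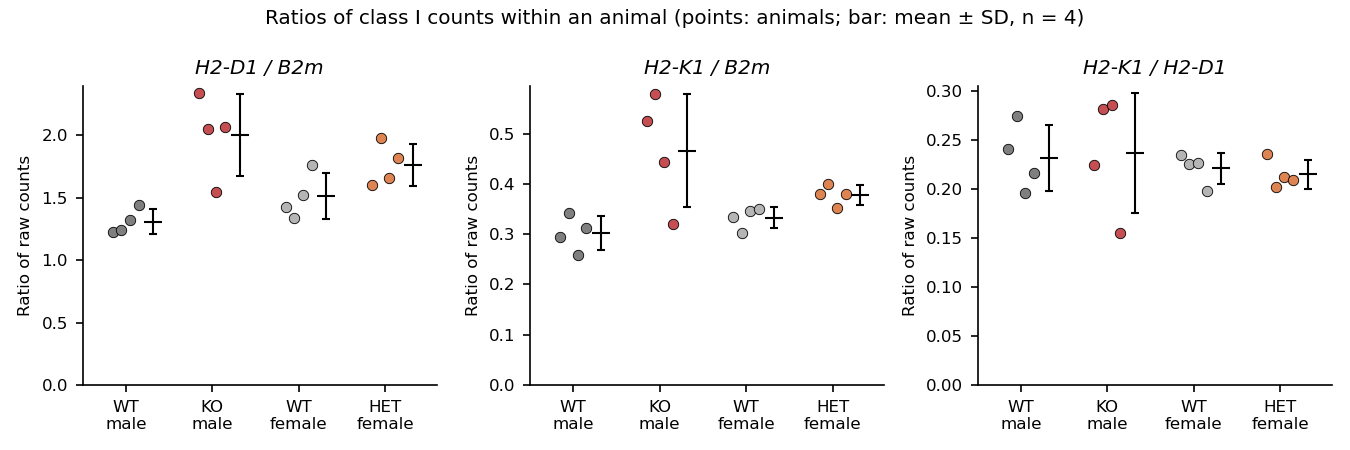
Ratios of raw counts within an animal (vertical axes, each from 0) for the 4 animals of each group, with points for animals and a bar for the mean ± SD. The ratio of *H2-D1* to *B2m* lies at 1.55 to 2.34 in KO males, above all WT males, while *H2-K1* to *H2-D1* overlaps between all groups.

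In the absence of the mutation, none of the 6 genes tested beside *H2-Ab1* was called between WT females and WT males by edgeR, beside 5% of all genes tested. None of the 6 had an unadjusted p under 0.05, beside 3241 of all 17866 genes tested. DESeq2 gave an adjusted p for only 2 of the 6, *H2-D1* (0.539) and *B2m* (0.198). The largest value was that of *Ciita*, 0.48 higher in females (standard error 0.264, 95% interval -0.0749 to 1.03, q = 0.355). *B2m* was lower in females by a Log2FC of -0.27 (standard error 0.136, 95% interval -0.551 to 0.0159, q = 0.307), and it was called when the filter on low counts was left off (q = 0.0851). For *H2-D1* the Log2FC was -0.08 and its interval, -0.209 to 0.0588, was the narrowest of the 6.

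Other genes of the same pathways could be followed only where the sources pair an identifier with a symbol. Beyond the members, this held for *H2-Q2* and *Tapbpl* among the class I genes and for *Gbp6* and *Rsad2* among interferon targets, all paired through the study's list of changed genes and hence not independent. *H2-Q2*, a nonclassical class I heavy chain close in sequence to *H2-K1* and *H2-D1*, rose in KO males from 2.61 ± 0.164 to 6.83 ± 0.537 CPM (SD, n = 4), a Log2FC of 1.39 (standard error 0.179, q = 5.61e-05). *Tapbpl*, which edits the peptides of class I molecules, rose by 0.51 (standard error 0.139, q = 0.0476). The interferon target *Rsad2* fell by 1.52 on the log2 scale (standard error 0.404, q = 0.0429), from 6 to 16 counts in WT males to 2 to 5 in KO males. *Gbp6*, induced by interferon gamma, did not pass the filter and had 7 to 11 counts in WT and 1 to 3 in KO males.

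Markers of several cell types were paired through the same list of changed genes. That they differ between genotypes thus follows in part from how they were found, and nothing is read from it. The list pairs 1 of 6 neuronal, 2 of 8 choroid plexus, and 3 of 5 erythroid symbols. *Siglech* is the single paired symbol of the 12 microglial genes. It was at 5.56 ± 0.945 CPM (SD, n = 4) in WT and 8.35 ± 1.42 in KO males, with 4 of 4 KO males above every WT male (Log2FC 0.58, standard error 0.172, q = 0.0736). In females it was at 5.08 ± 1.30 CPM in WT and 6.67 ± 1.03 in HET animals. The hemoglobin gene *Hba-a1*, which marks blood, was at 51.0 ± 6.71 CPM in WT and 33.9 ± 5.16 in KO males (Log2FC -0.59, standard error 0.0988, q = 0.00131). It was at 38.6 ± 2.44 CPM in WT and 39.2 ± 3.01 in HET females, and WT females lay below WT males (Log2FC -0.40, q = 0.0417). Of the other paired hemoglobin genes, *Hba-a2* was called lower in KO males (Log2FC -0.67, q = 0.00904) and *Hbb-bt* was not called (Log2FC -0.57, q = 0.112). The choroid plexus transcripts *Ttr* and *Aqp1* had a Log2FC of -5.76 (standard error 1.66, q = 0.0643) and -1.999 (standard error 0.574, q = 0.0642) in KO males. For *Aqp1* all 4 KO males were below every WT male, while for *Ttr* the groups overlapped. The neuronal gene *Rbfox3* was at 265 ± 14.2 CPM (SD, n = 4) in WT and 233 ± 16.3 in KO males, with 3 of 4 KO males below every WT male (Log2FC -0.19, standard error 0.0532, q = 0.0642). As a description, the female Log2FC was -1.39 for *Ttr*, -0.32 for *Aqp1*, and -0.09 for *Rbfox3*. No symbol of the lists for dendritic cells, B cells, T cells, or border macrophages was paired. The part of these cells in the changes of *H2-K1*, *H2-D1*, and *H2-Ab1* was not tested.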

How the data were processed

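The authors deposited raw counts of reads per Ensembl gene, without normalization, for 16 forebrains. They made poly(A)-selected, strand-marked, paired-end libraries, mapped reads to mm10 with STAR 2.5.3a, kept unique, deduplicated reads, and counted them with featureCounts (Subread 1.5.0, per the labels). The strand setting is not given in the sources used here. Duplicate removal without molecular identifiers can lower the counts of abundant short transcripts.

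The fit was made with edgeR 4.0.16 in R 4.3.3 (filterByExpr, TMM, glmQLFit with a mean for each group across the 16 animals, glmQLFTest), with Benjamini-Hochberg adjustment over all 17866 genes tested and a threshold of 0.1. CPM values are TMM-scaled. Correlations used a prior count of 2 and 100000 permutations within groups. Within groups the chi-square per gene was 2.85 to 14.8 over 24 pairs of animals, above sampling noise. The code was tested on simulated counts. Intervals on summed reads cover counting error only.

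The members and lists were chosen with earlier results of these data known. All 8 members are named, with any paired pathway gene called in KO males. Outside that rule, *Gbp6*, *Siglech*, *Hba-a1*, *Hba-a2*, *Hbb-bt*, *Ttr*, *Aqp1*, and *Rbfox3* were named after their values were seen. Symbols came from the study's list of changed genes, which pairs 1013 identifiers with the members included. Under 80% of each pathway or marker list was paired, so no list counts are given.

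Alternatives were DESeq2 1.42.0, its size factors in edgeR, no filter, at least 10 counts in every animal, only the groups compared, the label letter as covariate, leaving out each animal, a 0.05 threshold, and, chosen after seeing the data, leaving out the 6 animals high in *Ttr*.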

Additional observations from a re-analysis of the deposited data

Results flagged for a closer look

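In 5 of the 32 sets of 4 animals (8 genes in 4 groups), a single animal lay far from the others of its group, with a gap beyond Dixon's 95% value for 4 samples. For normally distributed values chance gives about 1 in 20 such sets, a rate that need not hold for the low counts of the class II genes. *H2-Ab1* was high in WT male 7D, at 0.628 CPM (14 reads, beside 13 in WT male 5D), and in WT female 4E, at 0.542 CPM (13 reads). In HET females, *H2-Aa* was low in 9E at 0.0424 CPM (1 read), *Ciita* was low in 9D at 1.06 CPM, and *H2-D1* was low in 6E at 38.3 CPM. The last still lies above every WT female. Without WT male 7D the male Log2FC of *H2-Ab1* was 0.46, given as a description.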

How the results depend on the processing

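*H2-D1* was called higher in KO males in each of the 7 alternative fits (Log2FC 0.47 to 0.48, edgeR or DESeq2 adjusted p from 4.83e-09 to 0.0181). Members called higher in KO males numbered 1 in place of 2 with only the groups compared, without the animals high in *Ttr*, and at a threshold of 0.05, and 1 to 2 when each animal was left out. As a description, those under the threshold in HET females numbered 1 with at least 10 counts in every animal (which removes *H2-Ab1*) and with only the groups compared, 0 without the animals high in *Ttr*, and 0 to 2 when each animal was left out. The Log2FC of *H2-Ab1* there was 1.59 with only the groups compared and 1.66 without the animals high in *Ttr*, against 1.59 in the fit reported. Without the filter, 1 member (*B2m*) was called lower in WT females. Directions turned, in values that passed no test, without the animals high in *Ttr* for *Ciita* in KO males (0.0498) and *H2-Eb1* between the WT sexes (0.0201). Leaving out single animals gave -0.275 to 0.0835, -0.404 to 0.140, and, for *Cd74* between the WT sexes, -0.347 to 0.00996. In HET females it gave -0.1795 to 0.0971 for *Ciita* and -0.0453 to 0.127 for *B2m*. Correlations with *H2-Ab1* turned over raw values for *H2-Aa* (0.158), *H2-Eb1* (0.0266), *Ciita* (0.00435), and *H2-K1* (0.266), and with group and letter means taken off for *Ciita* (0.1105), *H2-K1* (0.1085), and *H2-D1* (-0.148). For *Ciita* it was 0.128 without the 2 farthest animals. Without single animals it ran from 0.2395 to 0.655 for *Cd74*, -0.584 to -0.0469 for *H2-Eb1*, -0.325 to 0.0471 for *H2-Aa*, -0.324 to 0.103 for *Ciita*, -0.155 to 0.172 for *H2-K1*, and -0.113 to 0.1215 for *H2-D1*. The cause of these turns was not tested. Over all genes, 635 were called higher and 302 lower in KO males, against 857 and 611 with the letter as covariate, 810 and 469 without the filter, 449 and 134 at the 0.05 threshold, and 207 and 17 without the animals high in *Ttr*. Without single animals these counts ran from 446 to 705 and from 107 to 424. The alternatives for counts over the pathway lists were not run, since too few list genes were paired with identifiers. No paired analysis was possible because number and letter together mark a single animal and the genotype groups of a sex share at most 1 number. The letter alone recurs in every group and was fitted as the covariate above. Depth limits the class II genes above all, at 0 to 59 reads per animal.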
